A study of Caenorhabditis elegans with 2 samples.

Results

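Strong candidate peaks that lay inside exons and away from promoters were examined in a ChIP-seq series on the C34B4.2 protein of Caenorhabditis elegans. They were chosen by the pooled signal of the authors' candidate list and by position. The 30000 pooled candidates were ranked by signal, and ranks 1 to 3000 on autosomes were kept, which left 2701. Of these, 703 had their summit, the base of highest signal, in an annotated exon of a protein-coding gene. Each of these summits also lay outside every window that runs 1000 bp upstream to 200 bp downstream of a protein-coding transcript start. The other autosomal candidates of ranks 1 to 3000 were 833 in promoter windows of genes on one strand only, 195 in divergent promoters, where windows on both strands overlap, 536 in introns and 434 between genes.

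All libraries came from 1 group, the transgenic strain OP552, with the genotype unc-119(tm4063) III; wgIs552. The strain makes C34B4.2 with a GFP-FLAG tag at the C-terminal end, in animals that also bear the unc-119 mutation. The antibody label names C34B4.2 while the sample description says anti-GFP. Whole L1 larvae of both sexes were used 6 h after synchronization, for which bleached cultures were starved as L1, and the chromatin was sonicated. There were 2 biological replicates and no second group, so signal from all tissues is mixed and no comparison between conditions was possible. The tagged copy is an integrated transgene (wgIs552) present beside the endogenous gene, as far as the genotype shows.

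Sequence-specific transcription factors mostly bind DNA near the starts of genes, and in the compact worm genome the regulatory DNA of a gene often lies just upstream of it. Exons are the parts of a gene that stay in the mature message, and their coding parts are richer in G and C than worm introns and intergenic DNA. Many worm messages receive a spliced leader in place of their own first bases, so an annotated start can lie downstream of where transcription began.

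The summit sequences of 6 of the strongest members in coding sequence are given first, because the largest signals in coding exons rest on such sites. Each stretch is the 29 bp around the summit, read on the forward strand of the ce11 (WBcel235) genome, with the summit base in capitals. The stretches are chrIII:836011-836039 in dos-3, chrIII:834606-834634 in zip-2, chrIII:13268583-13268611 in cpf-2, chrIII:8903740-8903768 in lin-9, chrV:5268460-5268488 in B0238.12 and chrV:15432080-15432108 in T26H5.8.
dos-3: tcatctggattcggCtcccagagccctgg
zip-2: cagtccacgccgacCacaaccatcgtcgg
cpf-2: ataaatccgtatccCtttggctttccggt
lin-9: tgagttcactgaagGagaatctctacctc
B0238.12: gtaacgagatcaccAgacaatgtgtgcgt
T26H5.8: taattcggatttgtAgcatttataactgc
The G+C content of these stretches varied widely. It was 62.1% at dos-3 and 65.5% at zip-2, against 31.0% at T26H5.8.

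Members that held the 6-base word GACGCA, which lay at 13.3% of divergent promoter candidates of the same pooled list, are shown next, with the word in capitals. The word was taken from an earlier analysis of these same peaks, so its shares are a description. The stretch in unc-23, which encodes a BAG-domain co-chaperone needed for muscle attachment, is chrV:8937833-8937861 on the forward strand. The stretches in tag-273 (chrIV:14491986-14492014) and bmk-1 (chrV:14456285-14456313) are read on the reverse strand.
unc-23: ctacattaaGACGCAactctcagcagaat
tag-273: tatGACGCAgcgaatcccgtggaaaaaac
bmk-1: atggaaggagggagaacaGACGCAaaaag
These 3 were picked because the word lay within 14 bp of the summit, which held at 4 members in all. Their signals were 108, 81.8 and 72.4.

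Most members lay in coding sequence. The summit base was coding at 635 of 703 members (90.3%, 95% Wilson interval 87.9 to 92.3%), lay in a 3′ UTR at 54 (7.68%) and in a 5′ UTR at 13 (1.85%). The remaining summit, in ddx-17, lay in a transcript with no coding sequence. Internal exons held 518 members (73.7%), last exons 148 (21.1%), first exons 32 and single-exon transcripts 5. The summit was also intronic in another transcript at 50 members (7.11%), among them frm-1 and dnj-13. Per Mb of exonic sequence outside promoter windows there were 39.6 members in coding sequence (exact Poisson interval 36.6 to 42.8), 28.9 in 3′ UTRs (21.7 to 37.7) and 55.3 in 5′ UTRs (29.4 to 94.5). The 3′ UTR interval overlapped the coding one, and the 5′ UTR value rests on 13 summits. Exonic candidates weaker than rank 3000 under the same location rule, called lower-ranked here, numbered 6821, with 392.4 per Mb in coding sequence, 243 in 3′ UTRs and 242 in 5′ UTRs.

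Along the gene the members were spread broadly. On a scale with 0 at the start and 1 at the end of the spliced transcript, their median position was 0.483 (quartiles 0.256 and 0.703), against 0.505 for lower-ranked exonic candidates. Positions under 0.25 held 167 members (23.8%), those between 0.25 and 0.5 held 28.6%, those between 0.5 and 0.75 held 27.3% and those above held 143 (20.3%). The exon that held the summit had a median length of 377 bp, against 360 bp for lower-ranked exonic candidates, and the summit lay a median of 87 bp from the nearer exon edge, against 85 bp. Exons with a member ranged from 42 bp in nra-1 to 14975 bp in unc-44, the worm ankyrin gene. Both groups had wide quartiles (exon length 223 and 631 bp for members, 210 and 621 bp for lower-ranked candidates), and these medians differ by far less than that spread.

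Distance from an annotated start varied as much. The nearest protein-coding start lay a median of 884 bp upstream of the summit. At 133 members (18.9%) the summit was 201 to 500 bp downstream of it, at 210 (29.9%) it was over 2000 bp away on either side, and at 103 (14.7%) the summit lay upstream of the nearest start. Among the strongest members, zip-2, cpf-2, lin-9, T26H5.8 and unc-23 had their summits 315, 286, 377, 490 and 279 bp downstream of their own start, while ints-8 had its summit 5601 bp downstream. The members closest to the downstream edge of the window were at col-85, a cuticle collagen gene, 201 bp past the start with a signal of 89.8, at B0025.4, 202 bp past with 72.3, and at rnt-1, the worm RUNX factor gene, 206 bp past with 71.6. Just inside the window, and so not members, were rgs-3 at 200 bp with 69.5, nurf-1 at 197 bp with 95.5 and the chemoreceptor gene srh-201 at 197 bp with 72.5.

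The members' signals, which chose them, filled a narrow range. In the authors' unit, whose scale and read depth are unknown here, they ran between 69.3 and 169, with a median of 76.2 and quartiles of 72.2 and 82.9, and 23 members exceeded 100. Medians were 90.0 in divergent promoters (highest 868), 79.5 in one-strand promoters (highest 707), 76.6 in introns (highest 341) and 77.4 between genes (highest 823). Lower-ranked exonic candidates had a median of 48.5. At the rank limit the last members were at che-3, the dynein-2 heavy chain gene of cilia (69.37), at ceh-45, a homeobox gene (69.37), and at nhr-213 (69.33), and the first candidates of this location past it were at Y105C5B.1 (69.30), F33G12.3 (69.29) and H14A12.3 (69.29). No gap in signal separates them.

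**Figure D1:**
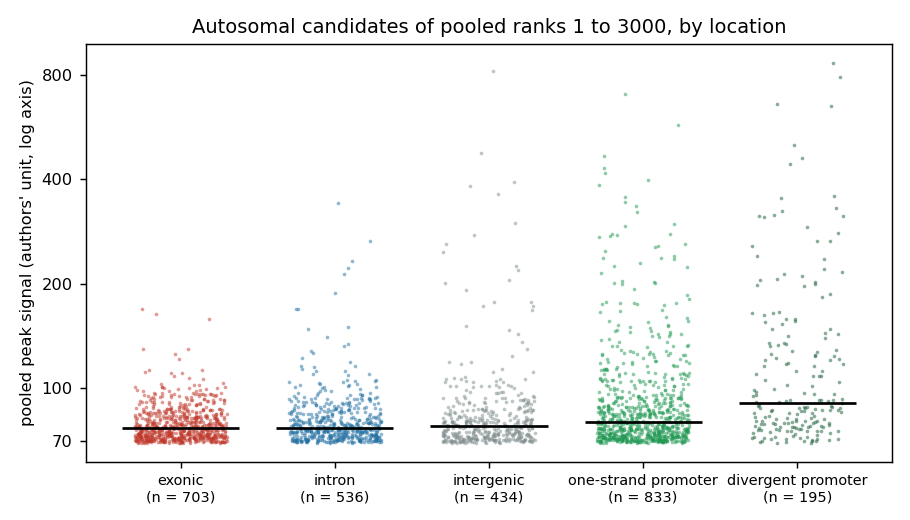
Pooled peak signal in the authors' unit, on a log axis, of each autosomal candidate of ranks 1 to 3000, by location; each point is a candidate and the black line is the median. The 703 exonic candidates reach 169, while intron candidates reach 341 and divergent promoter candidates 868.

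Exonic candidates were scarce at the very top of the ranking and common below it. Among the autosomal candidates of ranks 1 to 267 they made up 9 of 249 (3.61%, Wilson interval 1.91 to 6.73%), and at ranks 268 to 1000 they were 159 of 659 (24.1%, 21.0 to 27.5%). They then made up 29.1% at ranks 1001 to 2000, 30.6% at ranks 2001 to 3000, 29.0% from there to rank 10000, 30.1% in the next 10000 ranks and 29.5% in the last 10000. From rank 1001 on, all intervals overlap. Exonic sequence outside promoter windows makes up 22.04% of the autosomes, 18.2 of 82.6 Mb.

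**Figure D2:**
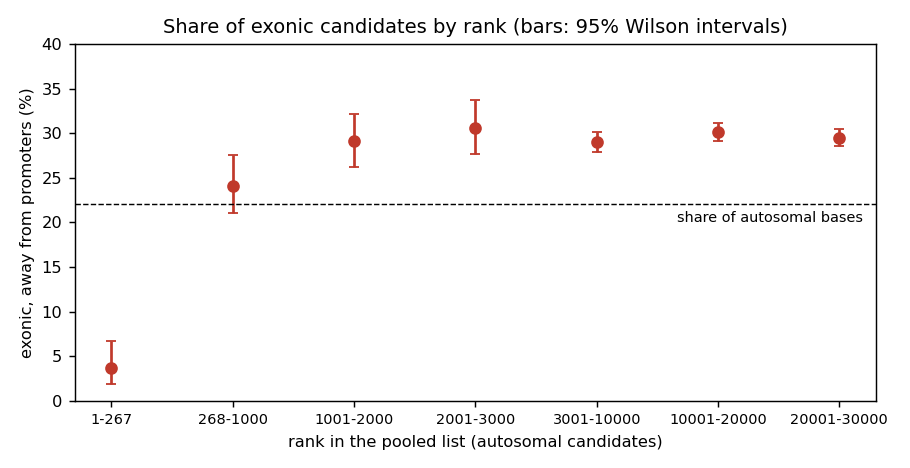
Share of autosomal candidates whose summit lay in an exon away from promoters (y axis, percent) by band of pooled rank (x axis), with 95% Wilson intervals; the dashed line is the 22.04% of autosomal bases that such exons occupy. The first band stands at 3.61% and the bands from rank 1001 on between 29.0 and 30.6%.

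Ranks 1 to 267 are also the authors' list thresholded by the irreproducible discovery rate (IDR), a method that keeps peaks whose rank repeats between replicates. That list held 0.89% of all 30000 pooled candidates and 9.22% of autosomal candidates of ranks 1 to 3000. It held 9 members (1.28%, 0.675 to 2.42%). Since members and list both follow from pooled signal, this count is a description. The 9 were at C34C12.2, dos-3, C05D11.8, tmem-107, ints-8, zip-2, cpf-2, lin-9 and gei-17.

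The strongest member lay in the long 5′ UTR exon of C34C12.2, on chromosome III at 3456241 to 3456610, with a pooled signal of 169 and replicate signals of 76.5 in replicate 1 and 91.1 in replicate 2. The next was in the last exon of dos-3, on chromosome III at 835840 to 836209, with 163 pooled, 100.7 in replicate 1 and 65.3 in replicate 2. Dos-3 encodes a protein with the DOS motif found in co-ligands of Notch receptors. Its neighbour zip-2, a bZIP transcription factor of pathogen defence, held a second strong member on chromosome III at 834435 to 834804, with 126 pooled, 80.8 in replicate 1 and 39.6 in replicate 2. The 3′ UTR of C05D11.8 held the third of the 3 members above 150, at 158, with 56.1 in replicate 1 and 100.2 in replicate 2. Replicate 1 was thus the higher one at dos-3 and zip-2, and replicate 2 at C34C12.2 and C05D11.8.

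Genes for RNA processing and gene regulation were also among these 20. Ints-8 encodes a subunit of Integrator, which cleaves nascent small nuclear RNAs, and its strongest member had a signal of 129, with 67.7 in replicate 1 and 62.6 in replicate 2. Cpf-2 encodes a cleavage stimulation factor subunit for the formation of mRNA 3′ ends, and its member had 121, with 66.7 in replicate 1 and 48.9 in replicate 2. Lin-9 encodes a subunit of the DRM complex, a repressor of cell cycle and developmental genes, and its member had 112.4, with 51.7 in replicate 1 and 63.3 in replicate 2. The member in the 3′ UTR of gei-17, which encodes a SUMO ligase, had 112.4, with 61.6 in replicate 1 and 49.9 in replicate 2. In both replicates each of these 4 members had an overlapping candidate above the value at that replicate's own rank 3000, which was 44.0 in replicate 1 and 35.8 in replicate 2.

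Cytoskeletal, ciliary and chaperone genes followed. The member in tmem-107, whose product sits in the transition zone of cilia, had a signal of 130, with 87.3 in replicate 1 and 40.5 in replicate 2. The 3′ UTR of klp-7, a kinesin that depolymerizes microtubules, had one of 110, with 81.3 in replicate 1. Replicate 2 had none that overlapped it, and its nearest summit was 1040 bp away. T26H5.8 showed the opposite imbalance, with 110 pooled, 40.5 in replicate 1 and 74.3 in replicate 2. Unc-23 had 108, with 69.8 and 46.4 in replicates 1 and 2, and frm-1, a FERM-domain gene, had 107, with 58.7 and 49.0. Dnj-13, a DnaJ co-chaperone gene, had 100.4, with 52.5 in replicate 1 and 50.3 in replicate 2, and both replicate summits lay on the same base as the pooled one.

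The remaining members of the strongest 20 included metabolic genes. The member in exon 4 of atp-1, the alpha subunit of mitochondrial ATP synthase, had a signal of 106, with 72.0 in replicate 1 and 31.0 in replicate 2. The one in aldo-2, a fructose-bisphosphate aldolase gene, had 102, with 38.5 and 60.2. B0238.12 had 111, with 69.5 in replicate 1 and 39.8 in replicate 2. K08D12.4, W06H8.6 and C06B8.7 had 103, 103 and 102, and each had replicate signals between 45.6 and 58.6. The summit in C06B8.7 lay upstream of the start of rpl-38, whose 3′ UTR held another member.

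The members fell in 664 genes, of which 629 held 1, 32 held 2 and 3 held 3 or more. W06H8.6 held 4, with pooled signals of 103, 98.2, 77.9 and 73.0. Of these, 3 shared its last exon of 3057 bp, and 2 of those lay under the annotated non-coding RNA W06H8.5. Ppm-2, a gene of the PP2C phosphatase family, held 3 at 95.6, 84.3 and 79.5. Its second member differed between replicates, with 26.9 in replicate 1 and 65.6 in replicate 2. Tat-1, a flippase gene that keeps phosphatidylserine on the inner side of the plasma membrane, held 3 at 91.0, 82.8 and 79.6, and 2 of these had no overlapping candidate in replicate 1. Members of one gene are not independent sites. The pair in F22B7.9, the only members within 500 bp of each other, overlapped the same replicate candidates, of 39.3 in replicate 1 and 38.6 in replicate 2. In all, 4 members (0.569%) had the replicate candidates of a stronger pooled candidate in both replicates. Besides the weaker F22B7.9 member these were dhc-4, with an intron candidate of rank 164, and Y71F9AL.8 and cyn-1, with promoter candidates of ranks 246 and 509.

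The replicates both held most members, but seldom near the top of both lists. An overlapping candidate was found in replicate 1 for 682 members, in replicate 2 for 653 and in both for 632 (89.9%). A summit within 100 bp in both lists was found for 502 (71.4%), against 75.03% in one-strand promoters, 82.6% in divergent promoters, 73.1% in introns, 72.8% between genes and 17.3% of lower-ranked exonic candidates. Only 75 members (10.7%) overlapped a candidate among the strongest 3000 of both replicates, while 153 overlapped such a candidate in neither. For the promoter classes that share was 28.1% on one strand and 49.2% in divergent windows, and it was 18.7% in introns and 17.97% between genes. Among lower-ranked exonic candidates it was 0.367%. The values at rank 3000 were 44.0 in replicate 1 and 35.8 in replicate 2. Since members' replicate signals added up to a median of 0.990 of the pooled signal, few candidates of low pooled signal can reach both. These shares are thus tied to the pooled signal that chose the candidates, and are a description. At the stricter limit of the strongest 1000 in both replicates, 15 members remained (2.13%), among them C34C12.2, dos-3, C05D11.8, ints-8, cpf-2, gei-17, unc-23, frm-1 and dnj-13. Of these 15, dhc-4 and Y71F9AL.8 had the replicate values of the stronger candidates named above, and without such members 13 of 699 remained (1.86%).

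Replicate agreement followed rank within the members. A summit within 100 bp in both replicates was found for 8 of 9 members of ranks 1 to 267, for 133 of 159 (83.6%) of ranks 268 to 1000, for 186 of 264 (70.5%) of ranks 1001 to 2000 and for 175 of 271 (64.6%) of ranks 2001 to 3000. Rank comes from the pooled signal, to which both replicates contribute, so this order is a description.

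Replicate 1 gave the higher value at most members chosen from the pooled list. The median was 44.2 in replicate 1 (24.7 to 100.7) and 33.9 in replicate 2 (20.3 to 100.2), and the median log2 ratio of replicate 1 over replicate 2 was 0.37, with quartiles of -0.01 and 0.77. It was above 0 at 467 of 632 members (73.9%). The direction depended on the list that chose the members, as the median was -0.19 for those chosen from replicate 2 alone and 0.80 for those chosen from replicate 1 alone. The medians of the ratio were 0.28 in one-strand promoters, 0.19 in divergent promoters, 0.32 in introns, 0.33 between genes and 0.29 for lower-ranked exonic candidates. The replicate lists as wholes had medians of 31.1 and 25.4 in replicates 1 and 2, and their scales are not known to be equal. The part of this difference in the members' ratio was not tested. Across members the rank correlation of the replicate signals was -0.38 over 632 regions, against 0.53 over 184 divergent promoter candidates. The replicate signals added up to a median of 0.990 of the pooled signal, and members occupy a narrow range of that sum, which by construction ties a high value in one replicate to a low one in the other.

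**Figure D3:**
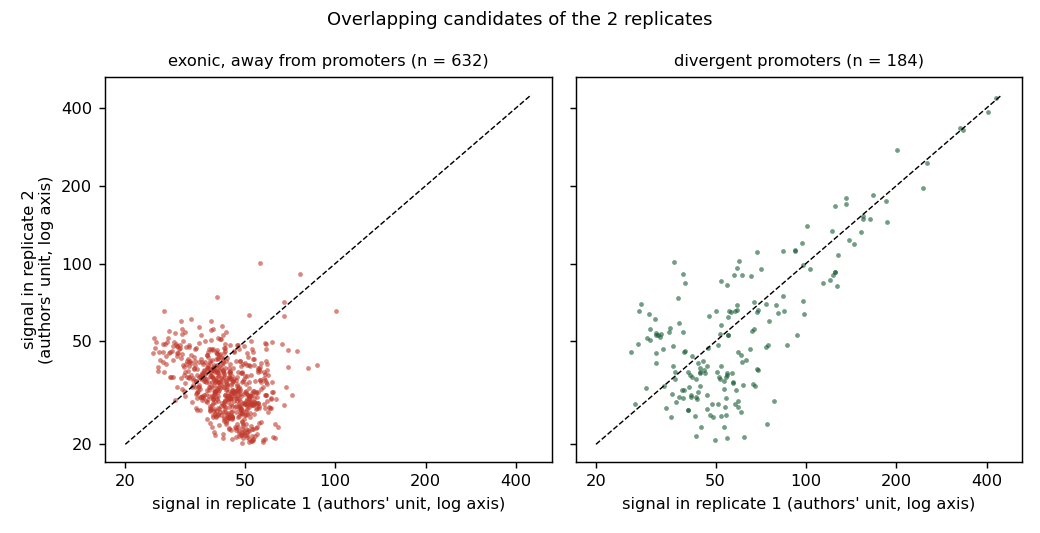
Signal in replicate 2 (y axis) against replicate 1 (x axis), both in the authors' unit on log axes, for candidates with an overlapping candidate in both replicates; exonic candidates are on the left (n = 632) and divergent promoter candidates on the right (n = 184), and the dashed line marks equal values. Exonic candidates form a cloud with medians of 44.2 and 33.9, while divergent promoters extend along the diagonal to above 400.

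Members were denser on some chromosomes. Chromosome III held 170, or 53.7 per Mb of exonic sequence outside promoter windows (exact Poisson interval 45.9 to 62.4), chromosome I held 44.3 per Mb (37.6 to 51.9) and chromosome IV 36.7 (30.5 to 43.7). Chromosomes II and V held 31.3 (25.7 to 37.7) and 31.1 (26.3 to 36.7). The interval of chromosome III overlaps that of chromosome I and lies above those of the other three. Lower-ranked exonic candidates gave the same order with a smaller range, at 438 per Mb on III, 391.8 on I, 380 on IV, 346 on II and 337 on V. These intervals and all Wilson intervals cover counting error only.

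**Figure D4:**
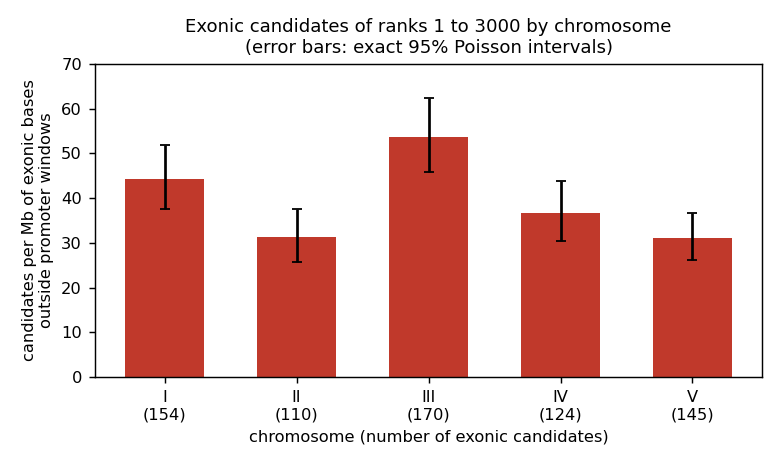
Exonic candidates of ranks 1 to 3000 per Mb of exonic bases outside promoter windows (y axis) for each autosome (x axis, with the number of candidates), with exact 95% Poisson intervals. Chromosome III has the highest density, 53.7 per Mb, and V the lowest, 31.1.

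Some host genes also carried a candidate in their promoter. A promoter candidate of ranks 1 to 3000 was found for 109 of 664 host genes (16.4%, Wilson interval 13.8 to 19.4%), against 938 of 15111 other autosomal genes with exonic sequence outside promoter windows (6.21%, 5.83 to 6.60%). A promoter peak in the thresholded list was found for 37 host genes (5.57%, 4.07 to 7.59%), against 195 other genes (1.29%, 1.12 to 1.48%). At 2 of the 109, Y71F9AL.8 and cyn-1, the promoter candidate overlapped the member and had the same replicate candidates, which leaves 107 (16.1%, 13.5 to 19.1%) with a promoter candidate apart from the member. The Y71F9AL.8 promoter peak is 1 of the 37 thresholded ones. The atp-1 promoter peak ranked 5 with a signal of 659 and lay 1388 bp from the exonic summit. The lin-9 promoter peak ranked 25 with 335 and lay 543 bp away, and the hsp-60 promoter peak ranked 12 with 442 and lay 996 bp away. At tmem-107 exon and promoter were nearly equal, with 130 in the exon and 132 at the promoter 714 bp away, and at dnj-13 the exon had 100.4 and the promoter 155. Host genes also had more exonic sequence outside promoter windows, a median of 1529.5 bases against 845 in other genes, and its part in these shares was not tested.

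Over all autosomal genes with such exonic sequence, 4.21% (664 of 15775) held a member, and members numbered 38.6 per Mb of it. The 16 gene families below are read against both values, since short genes offer few bases. Their counts are small, and the lists were drawn up with earlier results of these data known.

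Among genes for protein synthesis and folding, cytosolic ribosomal protein genes had members at 2 of 44 genes (4.55%, 1.26 to 15.1%), close to the share of all genes. They were rpl-38, with a signal of 89.1 and replicate values of 31.9 and 47.8, and rps-15, with 74.9, 38.9 and 28.3. Their 160 members per Mb rest on these 2. Translation factors had members at 3 of 35 genes (8.57%, 2.96 to 22.4%), led by ifet-1 (94.7), which encodes an eIF4E-binding repressor of translation, and ifg-1 (89.5), the eIF4G gene. Heat shock proteins and chaperonins had 5 of 47 (10.6%, 4.63 to 22.6%) and 110 members per Mb, led by dnj-13 (100.4) and the HSP70 gene hsp-1 (92.7, with 63.3 in replicate 1 and 30.1 in replicate 2). The lower bound of that share, 4.63%, is just above the 4.21% of all genes. Asparaginyl-tRNA synthetase nars-2 (77.7) was the only host among 31 tRNA synthetase genes. Translation factors had 85.3 members per Mb and tRNA synthetases 19.6, against 38.6 over all genes, and the tRNA synthetase value rests on 1 member.

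Genes for respiration and for nuclear structure had few members each. Respiratory chain genes, a list that includes ATP synthase, had them at 4 of 43 genes (9.30%, 3.68 to 21.6%), led by atp-1 (106) and the complex I gene ndua-12 (85.9). Nuclear pore genes had 3 of 26 (11.5%, 4.003 to 29.0%), led by npp-25 with members of 94.3 and 78.9 and by npp-20 (84.2), whose product is the SEC13 subunit. Histone genes had 1 of 11, in the 3′ UTR of the H4 gene his-37 (69.6). RNA polymerase and splicing genes had 1 of 47, prp-8 (70.6), the core protein of the spliceosome. The intervals of these 4 shares include the 4.21% of all genes. Members per Mb were 155 for respiratory chain genes and 194 for histone genes. They were 61.7 for nuclear pore genes and 12.7 for RNA polymerase and splicing genes, against 38.6 overall. These values rest on 4, 1, 4 and 1 members and have no interval, so they are a description.

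Muscle and cytoskeletal genes are long, and their share and their density differ. Muscle structure genes had members at 6 of 34 genes (17.6%, 8.35 to 33.5%), above the 4.21% of all genes, yet at 32.5 members per Mb, near the overall 38.6. They were led by pat-6, the parvin of muscle attachment sites (81.5, with 59.2 in replicate 1 and 38.7 in replicate 2), and unc-54, the major body wall myosin heavy chain (76.5, with 39.7 and 38.2), and included let-805, pat-2, mlc-3 and the titin-like gene ttn-1. Cytoskeleton genes had 4 of 37 (10.8%, 4.29 to 24.7%), with a lower bound just above the 4.21% of all genes, at 44.9 per Mb, led by mec-12, an alpha-tubulin of touch receptor neurons (81.6), and arx-4, a subunit of the Arp2/3 complex (77.7).

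Large families of receptors, F-box proteins, lectins and collagens differed in their shares. Chemoreceptor GPCR genes held members at 8 of 1266 genes (0.632%, 0.321 to 1.24%), against 4.21% of all genes, and at 8.56 per Mb against 38.6 overall. The strongest were srj-22 (92.6, with 51.9 in replicate 1 and 40.2 in replicate 2) and srw-95 (79.7, with 39.0 in both). F-box genes had 5 of 303 (1.65%, 0.707 to 3.80%) at 20.7 per Mb, led by fbxc-51 (87.3) and fbxa-51 (77.6). Nuclear hormone receptors had 9 of 245 (3.67%, 1.94 to 6.83%) at 34.6 per Mb, led by nhr-182 (82.11) and nhr-96 (82.10). C-type lectins had 10 of 232 (4.31%, 2.36 to 7.75%) at 50.1 per Mb, led by clec-221 (94.96) and clec-78 (82.3). Cuticle collagens had 4 of 141 (2.84%, 1.11 to 7.07%) at 34.8 per Mb, led by col-85 (89.8) and col-120 (85.0). The 1 autosomal vitellogenin gene held 0 members.

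Summits were richer in G and C than their surroundings. The windows of 50 bp to either side of members' summits had a median G+C content of 43.6% (quartiles 38.6 and 49.5%), against 37.1% for windows of the same size centred 300 bp to either side. The median difference within a member was 6.44 percentage points, and it was above 0 at 526 of 703 members (74.8%). The same difference was 4.95 points for lower-ranked exonic candidates (72.5% above 0), 8.42 in divergent promoters, 6.44 in one-strand promoters, 5.94 between genes and 3.22 in introns. C34C12.2, W06H8.6 and zip-2 showed large differences, with 51.5, 56.4 and 61.4% at the summit against 38.1, 33.2 and 39.6% in the flanks. Klp-7 went the other way, with 41.6% at the summit against 51.98% in the flanks.

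The contrast was smaller where the flanks also lay in exons. At the 538 members with a flank centred in an exon, the summits had 43.6% and those flanks 40.6%, a median difference of 2.97 points that was above 0 at 327 (60.8%), against 1.98 points for lower-ranked exonic candidates. Coding members had a difference of 6.93 points, 5′ UTR members 2.97 and 3′ UTR members 0. The eligible bases themselves held 42.7% G+C in coding sequence, 35.5% in 5′ UTRs and 30.04% in 3′ UTRs.

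**Figure D5:**
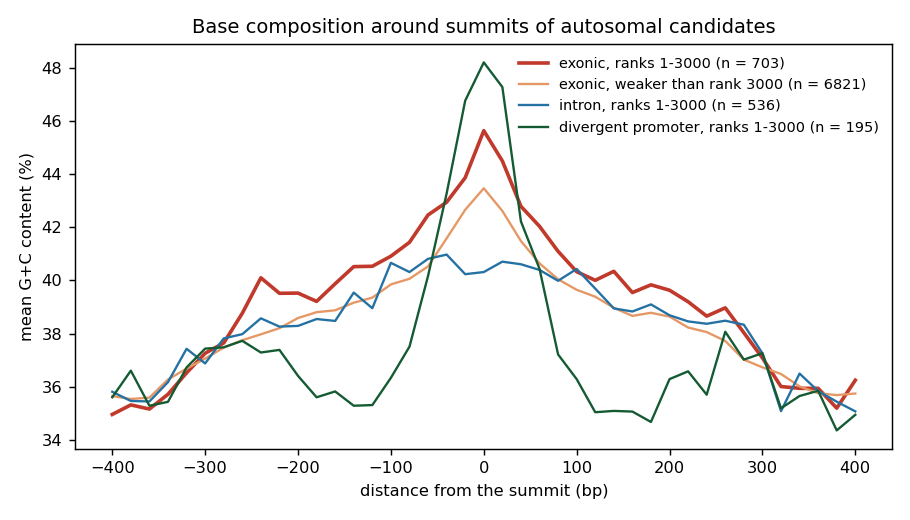
Mean G+C content (y axis, percent) by distance from the summit (x axis, bp) for exonic candidates of ranks 1 to 3000, exonic candidates of lower rank, intron candidates and divergent promoter candidates. Exonic candidates of ranks 1 to 3000 peak at 45.6% at the summit with a broad base, and divergent promoters have a narrower peak at 48.2%.

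Words of 6 bases were counted within 50 bp of the summit on both strands, each together with its reverse complement. GACGCA, read TGCGTC on the other strand, lay at 21 members (2.99%, Wilson interval 1.96 to 4.52%), in 27 of 1406 flank windows (1.92%) and in 1.69% of flank windows centred in an exon. It lay at 2.17% of lower-ranked exonic candidates, 3.36% of intron, 7.14% of intergenic, 7.80% of one-strand promoter and 13.3% of divergent promoter candidates. ACGCAG, which overlaps it by 5 bases, lay at 14 members (1.99%), against 11.8% of divergent promoter candidates. The members' interval for GACGCA begins just above the 1.92% of their flanks. That flank share rests on 27 windows and has its own counting error, for which no interval was computed. The members' interval includes the share of lower-ranked exonic candidates and lies below the shares of both promoter classes. Because the word was taken from an earlier analysis of these peaks, these comparisons are a description. Within 25 bp of the summit the share of members was 0.996%, against 0.569 to 2.13% in windows of that size up to 400 bp away, while divergent promoter candidates had 7.69% at the summit. Of the 9 members in the thresholded list, 1 held it, ints-8. Others were B0238.12, unc-23, hsp-1, pat-6, clec-78 and fbxa-51.

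The words with the largest share at summits minus flanks were other ones. ATCATC lay at 93 members (13.2%) and in 7.18% of flanks, GGAGCA at 78 (11.1%) and 5.05%, AAGCAG at 61 (8.68%) and 2.92%, AGAAGA at 120 (17.1%) and 11.5%, and GCTCCA at 84 (11.9%) and 6.83%. GCTCCA and GGAGCA overlap on opposite strands. In flanks centred in an exon the shares were closer to the summits, at 10.5, 6.24, 3.90, 16.8 and 9.10% in the same order. Lower-ranked exonic candidates held them at 11.0, 9.12, 5.59, 14.8 and 10.3%. The word AAAAAT had the largest deficit, with 18.9% of summits against 44.9% of all flanks and 29.1% of exonic flanks. The 5 words were ranked by this same difference, so the values describe them and carry no test.

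Few members had repeated sequence, a small RNA gene nearby, or a non-coding gene, pseudogene or second gene's exon over the summit. The 36-base words within 100 bp of the summit were all unique in the genome at 686 members (97.6%), and the lowest share, 41.6%, was at hmr-1, the cadherin gene. No member was narrower than 370 bp, the full width of a candidate. A small RNA gene lay within 200 bp of 12 summits (1.71%), including those in C08D8.1, fli-1, dhc-4, col-85 and mdf-2. Another non-coding gene or a pseudogene covered 5. In 3 cases the summit lay in exons of a pair of genes at once, at hpr-9 and swt-4, dnj-5 and C04A2.15, and K03H1.13 and K03H1.7, and the host of these cannot be told apart.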

How the data were processed

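The authors deposited candidate lists of peaks and background made as input for the IDR method for each replicate and for the pooled replicates, and 1 thresholded list, per the labels and the descriptions beside them. Their peak signal is in the authors' deposited unit, and the sources used here do not give its scale, the aligner or the peak caller. A control library is named behind the candidate lists and was not analysed here. Read depth is unknown. The deposited lists in the older ce10 build and the mitochondrial genome were not used.

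Summits were taken from the start and the summit offset in the deposited lists in ce11, the build of WBcel235. Genes came from Ensembl release 115. A summit was coding if any transcript of its gene made it so, then 5′ UTR, then 3′ UTR. Replicate values are those of the strongest overlapping candidate. Exonic bases outside promoter windows were the denominator of densities. Wilson and Poisson intervals are at 95% and cover counting error only. Since there is 1 group and members were chosen on pooled signal, no test was made.

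Members, gene lists and the word GACGCA were chosen with earlier results of these data known. Named were hosts of the 20 strongest members, members in the thresholded list, genes with 3 or more members, the 2 strongest of each of 16 lists, 3 on either side of rank 3000 and of the window's downstream edge, and the 5 leading words. Other genes were named after their values were seen. Alternatives changed the rank limit, windows, exon rule, merging, replicate and shared replicate candidates. The scripts were tested on simulated data, in Python 3.11.15 with numpy 2.4.6, pandas 2.3.3, scipy 1.17.1 and matplotlib 3.10.9.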

Additional observations from a re-analysis of the deposited data

How the results depend on the processing

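Of 78 alternatives, 58 left the value within its 95% interval or, for counts, within 1.5 times. The number of members depended on the rule. It was 432 at ranks 1 to 2000 (in 416 genes), 1194 at ranks 1 to 5000 (1091 genes) and 427 with windows 2000 bp upstream to 500 bp downstream (404 genes), and the cause is the rule's own limits. With those windows the median position was 0.54, and with 500 bp to 100 bp it was 0.44. Without replicate 1 or replicate 2, with members chosen again from the other list alone, members numbered 639 to 710 in 611 to 678 genes. The coding share was then 88.9 to 92.0%, the position 0.483 to 0.503, GACGCA 2.97 to 3.94% and the G+C difference 5.94 points in both cases. The share with a near summit in both replicates was then 37.2 to 38.2%. Summits of the choosing list match themselves there, so that share depends on the other list only and is not like the 71.4% of the pooled list. The log2 ratio was -0.19 without replicate 1, which is reversed, and 0.80 without replicate 2. In each case the higher replicate was the one on whose own signal the members had been chosen. Any other cause was not tested. With members from the pooled list, the share with a near summit in both was 75.7% at ranks 1 to 2000 and 66.6% at ranks 1 to 5000. It was 86.8% within 200 bp and 53.9% within 50 bp. The G+C difference was 7.43 points with flanks 500 bp away, 7.84 with windows of 25 bp and 2.97 with flanks centred in an exon, the last chosen after seeing the data. Leaving out the 4 members with the replicate candidates of a stronger pooled candidate, also chosen after seeing the data, left every value within those limits. GACGCA lay at 0.996% of members within 25 bp. No paired analysis was possible because the series has 1 group. With no counts or control values, the error of a single signal is unknown.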
